A study of Equus caballus with 34 samples.

Results

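The comparison set the 2 layers of the equine preovulatory follicle against each other on the transcript level, 5 arrays of granulosa cells (GC) against 5 arrays of theca wall (TW), chosen by their labels as the preovulatory (PO) arrays of both layers. These are 10 of the 34 arrays of a series on dominant follicles of mares. The other 24 arrays, used only where the stages are compared, hold GC and TW of early dominant (ED, 5 GC and 5 TW) and late dominant (LD, 5 GC and 9 TW) follicles. All are horse tissue with no treatment or genotype given in the labels, each array carries total RNA of 1 sample labelled with Cy3, and the labels do not say whether a GC and a TW sample came from the same follicle. The design text calls the samples biological replicates, and every p-value measures the spread between these samples. The sources used here do not give the mares' ages or the interval to ovulation.

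Granulosa cells line the inside of the follicle behind a basement membrane, carry no blood vessels, and convert androgen to estrogen under follicle-stimulating hormone. The theca wall around them holds androgen-producing cells, fibroblasts, smooth muscle, blood vessels and the leukocytes that travel in them. After the ovulatory surge of luteinizing hormone, granulosa cells leave the cell cycle and begin to luteinize, prostaglandins, proteases and growth factors of the epidermal growth factor family are induced, and the wall is remodelled until it ruptures. In bulk samples such as these, fewer cells of a type and less RNA per cell cannot be told apart.

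Each gene was read by a 60-base probe, and 6 of them are shown because they carry the main contrasts: aromatase, the follicle-stimulating hormone receptor and N-cadherin for GC, the androgen enzyme CYP17A1 and the largest theca wall gene LRRC17 for TW, and the kinetochore gene NDC80 for the comparison of stages. Bases 1 to 30 of each probe are printed 5′ to 3′ in lower case, with no part singled out in capitals.
CYP19A1: cgcgatgtagtagtctatacagaaggcaaa
FSHR: agggttatcaatggtgccaattgcacactt
CDH2: taccagaatataaatgatacacctctgacc
CYP17A1: ttggtctctctttcaacaattattttattg
LRRC17: atgccccaaagacaagctaccagcataccc
NDC80: gagattggagacaagtataagaagaaagct
The array's annotation places the whole probes of CYP19A1 at chr1:136470842-136470901, FSHR at chr15:47025062-47025121, CDH2 at chr8:42595391-42595450, CYP17A1 at chr1:26732683-26732742, LRRC17 at chr4:3774968-3775027 and NDC80 at chr8:36238139-36238198, and the sources used here do not give the genome build. The annotation puts the CDH2 probe on the minus strand and the other 5 on the plus strand.

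Levels are log2 of the spot's processed signal minus the array's own 75th percentile, so 0 is a signal at that percentile, and probes are compared between arrays, not with each other. A difference is GC minus TW, and SE is its standard error as limma gave it for 5 and 5 arrays. A call means that limma's p, adjusted by Benjamini and Hochberg's method across every feature tested (a gene or an unnamed probe), was under 0.05. A fold is written as "at least" where all arrays of the dimmer layer were not well above background or all arrays of the brighter layer were saturated.

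Granulosa and theca stroma markers each summed higher in their own layer, and the arrays differed in quality. Between 66.8% and 72.9% of the spots on a GC array and between 78.3% and 82.5% on a TW array were well above background. By the slide barcodes in the names of the scanner files, the GC arrays stood on slides 2, 3, 5, 8 and 10 and the TW arrays on slides 1, 4, 6, 7 and 9. The design text states otherwise, that the slides each carried all groups, and every statement on slides here follows the file names. With 0 of 10 slides holding PO arrays of both layers, slide and layer cannot be told apart by these 10 arrays, although 2 slides hold LD arrays of both. GC array 2 and TW array 2 resembled their own layer less, with mean correlations to the other 4 arrays of 0.931 and 0.945, as did GC array 4 at 0.932. TW array 4, on slide 7, had 1718 outlier spots and a coefficient of variation between repeated probes of 20.2%, against medians over the TW arrays of 588 and 6.38%.

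The marker lists describe the samples by summed signal. Endothelial markers summed to 0.361 to 0.580 (in units of the array's 75th percentile) on the GC arrays and to 11.6 to 17.7 on the TW arrays, and 5 to 9 of the 20 measured on every array were well above background in GC against all 20 in TW. Leukocyte markers summed to 2.42 to 4.94 in GC, with the highest value on GC array 2, and to 19.8 to 41.7 in TW, with the highest on TW array 1. Theca stroma markers summed to 11.7 to 28.8 in GC and 174 to 209 in TW, and smooth muscle markers to 12.7 to 30.9 and 27.1 to 64.0. Granulosa markers summed to 148 to 177 in GC and to 58.1 to 72.2 in TW, so the theca wall arrays were not free of them. A sum is weighted toward the brightest members. The median log2 level of the same 15 members overlapped between the layers. It was -0.53, -1.32, -1.84, -1.78 and -2.35 on the GC arrays and -1.27, -1.63, -1.44, -1.59 and -1.26 on the TW arrays. Of these members, 10 to 15 were well above background in GC and 13 to 14 in TW.

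Nearly as many features differed between the layers before ovulation as did not. Of 25559 features tested, 12028 were called (47.1%), 5122 of them higher in GC (20.0%) and 6906 higher in TW (27.0%). The counts of the gene lists below are to be read against these shares. Large differences lay more often on the TW side: 5955 of the 8973 called features with a log2 difference of at least 1 were higher in TW and 3018 in GC. For 826 of the called TW features (3.23% of the features tested), no GC array was well above background. For 18 called GC features (0.07%), no TW array was. Only features well above background on 5 or more of the fitted arrays were tested. Features dark on every array of a layer thus entered only through the other layer, where all arrays showed them. Fewer spots were well above background on the GC arrays (66.8% to 72.9%) than on the TW arrays (78.3% to 82.5%). The part of this lower detection in the counts was not tested. The arrays of the 2 layers did not overlap for 9017 features (35.3%).

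The share of calls in each direction rests on the scaling. The median difference over all features was -0.20 with the 75th percentile, 0.16 after quantile normalization and 0.58 with each array centred on its median, and the share of calls higher in GC was 42.6%, 56.5% and 74.1%, in that order. Features called higher in GC and in TW numbered 6424 and 4945 after quantile normalization and 10835 and 3778 with median centring, of 25559 tested. List counts under those scalings are to be read against these numbers. With all 34 arrays and slide as a fixed block, where the layers are joined only through the 2 shared LD slides, 4481 of 27796 features were called, 1500 higher in GC and 2981 higher in TW.

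**Figure D1:**
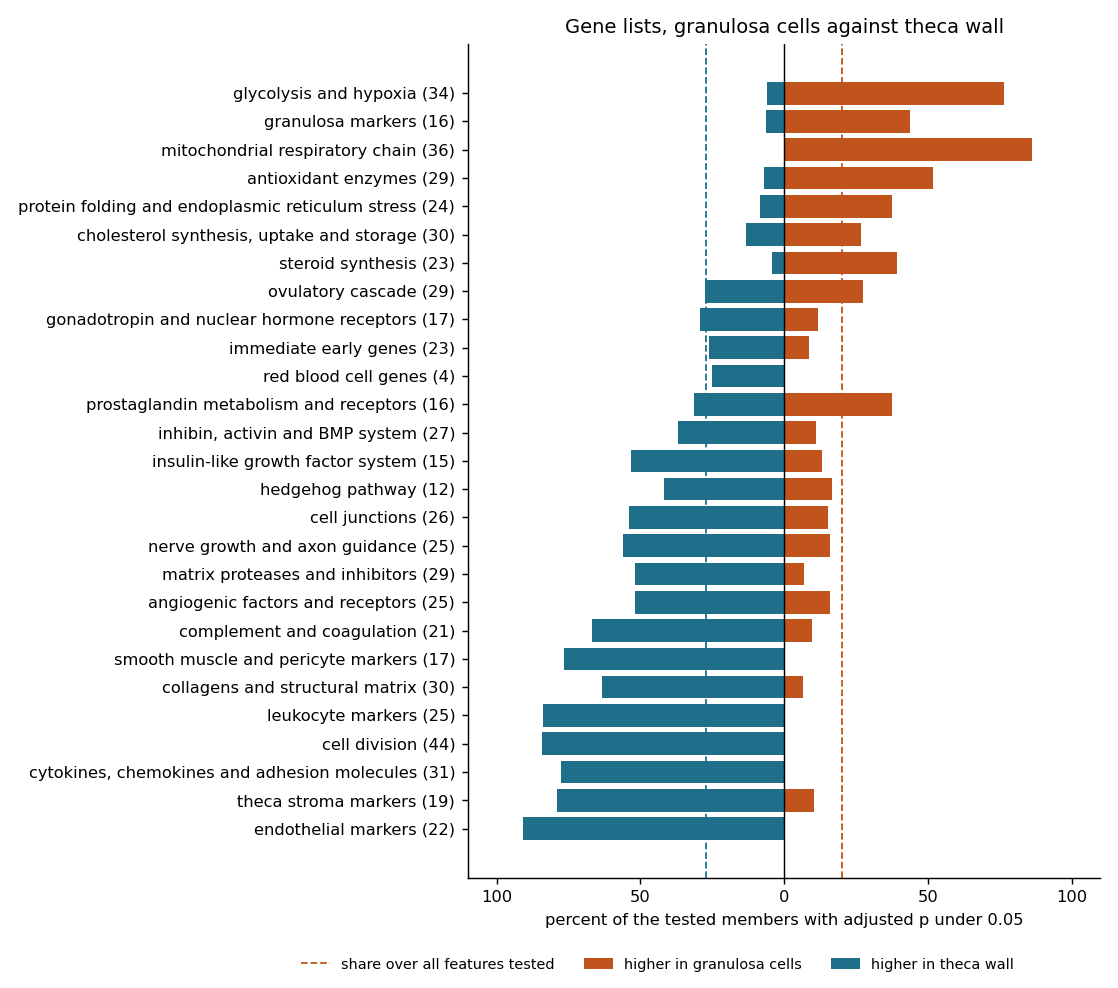
For 27 gene lists (tested members in brackets), bars to the right give the percent of tested members called higher in granulosa cells and bars to the left the percent called higher in theca wall, with dashed lines at the shares over all features. The respiratory chain and glycolysis lists reach farthest to the right and the endothelial, leukocyte and cell division lists farthest to the left.

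The 8 named genes with the widest differences toward GC had varied roles. RIT2, a small GTPase of neurons, lay at -1.14, 0.04, -0.58, 2.13 and 1.59 on the GC arrays and at -6.49, -3.59, -8.67, -4.97 and -5.26 on the TW arrays. The layers did not overlap, although TW array 2 was the highest of its group, and the difference came to 73.8-fold (log2 difference 6.20 ± 0.92 SE, adjusted p = 0.000338, with 4 of 5 TW arrays well above background). MAB21L2, a developmental factor of the eye and body wall, was 56.1-fold higher (log2 difference 5.81 ± 0.82 SE, adjusted p = 0.000248, with 3 of 5 TW arrays well above background), and the secreted neural protein NELL2 was 54.7-fold higher (log2 difference 5.77 ± 0.62 SE, adjusted p = 4.1e-05). PTHLH, which encodes a peptide related to parathyroid hormone, lay at 3.77, 1.33, 2.28, 3.55 and 2.43 on the GC arrays and at -2.41, -1.19, -3.62, -3.73 and -4.05 on the TW arrays. GC array 2 was the lowest of its layer there and still above every TW array, and PTHLH was 50.9-fold higher in GC (log2 difference 5.67 ± 0.62 SE, adjusted p = 4.28e-05). The set also held ASB9 (44.7-fold, log2 difference 5.48 ± 0.57 SE, adjusted p = 3.23e-05, with 2 of 5 TW arrays well above background), an adaptor of a ubiquitin ligase, the elastase inhibitor PI3 (41.7-fold, log2 difference 5.38 ± 0.99 SE, adjusted p = 0.00127, with 3 of 5 TW arrays well above background) and the tight junction gene CLDN10 (40.5-fold, log2 difference 5.34 ± 0.69 SE, adjusted p = 0.000141). The probe named PRKX, described in the array's annotation only as similar to a protein kinase, was 44.8-fold higher (log2 difference 5.48 ± 0.42 SE, adjusted p = 4.78e-06). CLDN10 and PI3 were both low on 1 or more GC arrays: CLDN10 stood at -1.60 on GC array 2 against 1.85 to 2.69 on the other GC arrays.

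The 8 with the widest differences toward TW follow. LRRC17, a secreted leucine-rich repeat protein, lay at -7.58, -8.91, -6.14, -5.28 and -5.79 on the GC arrays and at 1.61, 2.34, 1.44, 3.00 and 1.11 on the TW arrays. All TW arrays were above the 75th percentile and all GC arrays far below it, a 398-fold difference (log2 difference -8.64 ± 0.66 SE, adjusted p = 4.71e-06, with 3 of 5 GC arrays well above background). TM4SF18, a membrane protein of the tetraspanin-like L6 family, was 298-fold higher in TW (log2 difference -8.22 ± 0.51 SE, adjusted p = 1.72e-06, with 1 of 5 GC arrays well above background). SNAI2, the mesenchymal transcription factor Slug, was not well above background on any GC array and at -1.33 to 0.36 in TW, at least 147-fold higher (adjusted p = 4.06e-07). The matrix protein gene DPT lay at -5.86, -8.67, -3.28, -4.0 and -5.71 on the GC arrays and at 1.01, 2.69, 2.85 and 2.38 on the 4 measured TW arrays. Its GC arrays spread over more than 5 log2 units without reaching TW, and it was 213-fold higher in TW (log2 difference -7.74 ± 0.96 SE, adjusted p = 0.00016, with 4 of 5 GC arrays well above background). ACKR1, the chemokine-binding receptor of venules, was 212-fold higher (log2 difference -7.73 ± 0.69 SE, adjusted p = 1.28e-05, with 2 of 5 GC arrays well above background). The interferon-induced chemokine CXCL10, the stromal transcription factor TCF21 and the endothelial matrix gene MMRN1 complete the set: CXCL10 (199-fold, with 4 of 5 GC arrays well above background), TCF21 (196-fold, with 4 of 5 GC arrays well above background) and MMRN1 (at least 154-fold). The call for every one of these 16 genes except PI3 (adjusted p = 0.0728) also held with slide as a fixed block.

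The genes by which granulosa cells are known were higher in GC in part only. Of the 16 tested members of the granulosa list (of 20 listed), 7 were higher in GC, 1 was higher in TW and 8 did not pass, with a median difference of 1.06 against -0.20 over all features. CYP19A1, the gene of aromatase, which turns androgen into estrogen, lay at 4.80, 3.64, 4.50, 4.94 and 4.80 on the GC arrays and at -0.12, 0.32, -1.39, -0.86 and -0.17 on the TW arrays. The layers stood apart on every array, by 31.6-fold (log2 difference 4.98 ± 0.36 SE, adjusted p = 3.49e-06). CDH2, the gene of N-cadherin, which joins granulosa cells to each other, lay at 4.31, 4.36, 4.66, 4.45 and 5.04 on the GC arrays and at -0.93, 1.67, -0.96, -0.77 and -0.89 on the TW arrays. On TW array 2 it reached 1.67, while the other 4 TW arrays stayed under 0, and it was 30.7-fold higher in GC (log2 difference 4.94 ± 0.48 SE, adjusted p = 2.04e-05). FSHR, the receptor of follicle-stimulating hormone, lay at -2.33, -6.85, -1.96, -1.78 and -3.20 on the GC arrays and at -7.55, -7.40, -7.20, -7.34 and -8.85 on the TW arrays. GC array 2 was close to the TW arrays, of which 1 was well above background, and without it the difference rose from 4.45 ± 0.86 SE (adjusted p = 0.00178) to 5.35 (adjusted p = 7.48e-06). NR5A2, a nuclear receptor needed for ovulation and luteinization, was 16.1-fold higher in GC (log2 difference 4.01 ± 0.38 SE, adjusted p = 1.64e-05).

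**Figure D2:**
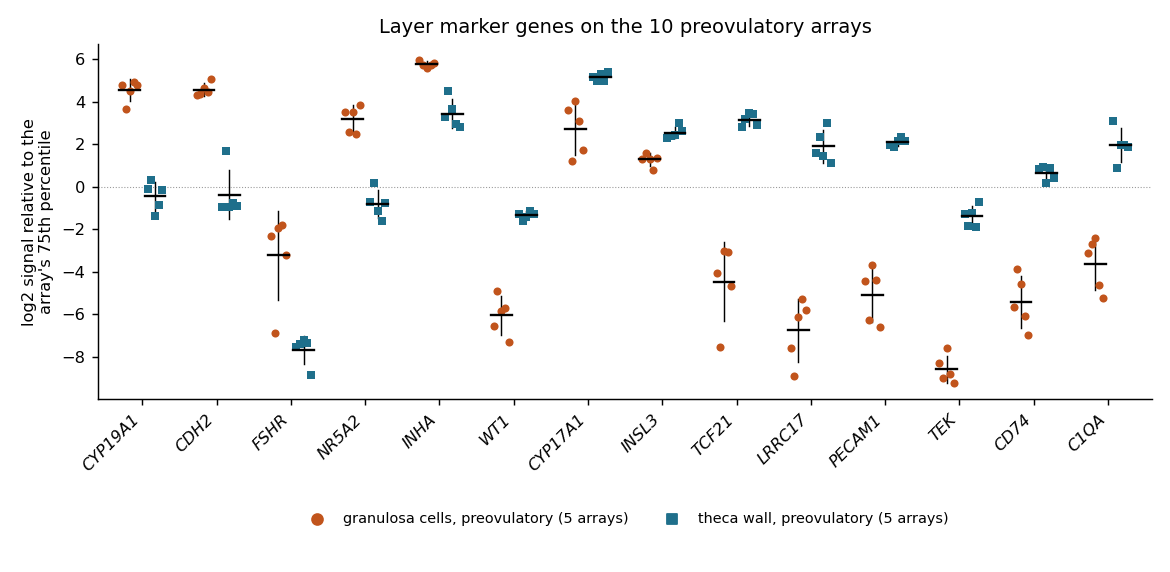
Level of 14 marker genes on the 10 preovulatory arrays, in log2 signal relative to each array's 75th percentile. Circles are granulosa arrays, squares theca wall arrays, bars the mean and thin lines the SD of 5 arrays. CYP19A1, CDH2, NR5A2 and INHA stand higher in granulosa cells on every array, FSHR comes close to the theca wall level on 1 granulosa array, and the vessel and leukocyte genes are high on all theca wall arrays.

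The inhibin genes followed. INHA, the alpha subunit shared by the inhibins, lay at 5.95, 5.72, 5.60, 5.72 and 5.82 on the GC arrays and at 3.27, 4.51, 3.67, 2.95 and 2.78 on the TW arrays, saturated on 4 GC arrays. The layers did not overlap, and with the saturated spots at their values, which can understate the difference, INHA was 5-fold higher in GC (log2 difference 2.32 ± 0.31 SE, adjusted p = 0.000158). INHBA, the beta A subunit of inhibin A and activin A, was 9.32-fold higher over 4 measured GC arrays and 5 TW arrays (log2 difference 3.22 ± 0.42 SE, adjusted p = 0.000225). GATM, an enzyme of creatine synthesis, was 4.11-fold higher (log2 difference 2.04 ± 0.48 SE, adjusted p = 0.00578). The activin antagonist FST was at 1.14 ± 0.47 SE and did not pass (adjusted p = 0.0698). WT1, a transcription factor of immature granulosa cells, went the other way: it lay at -6.52, -4.92, -5.85, -5.68 and -7.28 on the GC arrays and at -1.27, -1.63, -1.44, -1.13 and -1.26 on the TW arrays. TW was 26.1-fold higher with no overlap (log2 difference -4.70 ± 0.38 SE, adjusted p = 6.89e-06, with 4 of 5 GC arrays well above background). HSD17B1, which activates estrogen in granulosa cells of growing follicles, was low in both layers and did not pass (-0.35 ± 0.40 SE, adjusted p = 0.49). IHH, the Indian hedgehog ligand of granulosa cells, was well above background on 1 GC and 2 TW arrays and was not tested. With slide as a fixed block the list gave 4 higher in GC and 1 higher in TW, and CYP19A1 and FSHR no longer passed (adjusted p = 0.111 and 0.112) while their differences stayed at 3.66 and 4.05.

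In the wider inhibin, activin and bone morphogenetic protein system, more members were higher in TW than in GC. Of 27 tested members, 3 were higher in GC, 10 were higher in TW and 14 did not pass, with a median of -0.88. All features leaned toward TW as well, with 20.0% higher in GC and 27.0% higher in TW. Centred on array medians, the counts of the list were 10 and 8, beside 10835 and 3778 of all 25559 features in the same order. TGFBR2, the type II receptor of transforming growth factor beta, was 58.1-fold higher in TW (log2 difference -5.86 ± 0.43 SE, adjusted p = 4.02e-06, with 1 of 5 GC arrays well above background). The ligand BMP6 was at least 15.6-fold higher (adjusted p = 1.03e-05) and BMP7 16.2-fold higher (log2 difference -4.02 ± 0.55 SE, adjusted p = 0.000199, with 3 of 5 GC arrays well above background). ID3, a target of this pathway, was 7.2-fold higher (log2 difference -2.85 ± 0.46 SE, adjusted p = 0.000565). The ligand TGFB1 was higher in TW too (log2 difference -2.82 ± 0.48 SE, adjusted p = 0.000787). On the GC side stood INHA, INHBA and the receptor BMPR1B (1.87 ± 0.39 SE, adjusted p = 0.00281). With slide as a fixed block the counts were 4 higher in GC and 4 higher in TW.

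The theca stroma genes were far higher in TW, with 2 exceptions. Of 19 tested members, 2 were higher in GC, 15 were higher in TW and 2 did not pass, and the median difference was -4.54. TCF21 lay at -4.07, -7.52, -3.0, -3.06 and -4.68 on the GC arrays and at 2.80, 3.18, 3.45, 3.41 and 2.90 on the TW arrays. Even the lowest TW array was more than 5 log2 units above the highest GC array, and TCF21 was 196-fold higher (log2 difference -7.61 ± 0.74 SE, adjusted p = 1.97e-05, with 4 of 5 GC arrays well above background). PDGFRL, a receptor-like matrix protein, was 151-fold higher (log2 difference -7.24 ± 0.45 SE, adjusted p = 1.69e-06, with 1 of 5 GC arrays well above background). The matrix protein FBLN1 and the receptor PDGFRA, a mark of mesenchymal cells, were 85.4-fold and 55.4-fold higher (adjusted p = 4.06e-07 and adjusted p = 1.07e-05). NR2F2, the nuclear receptor COUP-TFII of stroma, was measured on 1 TW array only, array 2 (3.14, against -2.37 to -1.20 on the GC arrays), and its call, which assumes that TW varies as GC does, is among the 15. Without TW array 2 the list gave 14 of 18 tested members higher in TW. The exceptions were SFRP4, a secreted antagonist of Wnt signalling, 11.6-fold higher in GC (log2 difference 3.54 ± 0.48 SE, adjusted p = 0.000185), and HHIP, a hedgehog-binding inhibitor, 3.93-fold higher in GC (log2 difference 1.97 ± 0.53 SE, adjusted p = 0.0106). A fixed slide block left 0 higher in GC and 12 higher in TW.

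The theca cell genes CYP17A1 and INSL3 were higher in TW. CYP17A1, the enzyme that commits steroids to androgen, lay at 3.62, 1.21, 4.02, 3.09 and 1.71 on the GC arrays and at 5.14, 4.95, 5.32, 4.97 and 5.38 on the TW arrays, saturated on 4 TW arrays. No GC array reached the lowest TW array, and with the saturated spots at their values, which can understate the difference, CYP17A1 was 5.36-fold higher in TW (log2 difference -2.42 ± 0.50 SE, adjusted p = 0.00251). The GC arrays themselves ranged over nearly 3 log2 units. INSL3, the peptide hormone of theca cells, lay at 1.33, 1.61, 1.32, 0.80 and 1.35 on the GC arrays and at 2.29, 2.38, 2.43, 2.98 and 2.63 on the TW arrays. It was 2.4-fold higher in TW without overlap (log2 difference -1.26 ± 0.21 SE, adjusted p = 0.000729), and centred on array medians it did not pass. Under a fixed slide block CYP17A1 did not pass (adjusted p = 0.237), whereas INSL3 did (adjusted p = 0.0296).

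Genes of vessels, muscle and leukocytes were higher in TW nearly throughout. Of 22 tested endothelial members, 0 were higher in GC, 20 were higher in TW and 2 did not pass, with a median difference of -5.35. PECAM1, an adhesion molecule of endothelium, lay at -4.42, -6.28, -3.69, -4.37 and -6.58 on the GC arrays and at 1.97, 1.86, 2.13, 2.32 and 2.16 on the TW arrays. Every GC array was more than 5 log2 units below every TW array (143-fold, log2 difference -7.16 ± 0.52 SE, adjusted p = 3.49e-06). TEK, the angiopoietin receptor, was not well above background on any GC array and at least 109-fold higher in TW (adjusted p = 4.67e-07), as was KDR, the main receptor of vascular endothelial growth factor, by at least 28-fold (adjusted p = 1.45e-07). ECSCR, another endothelial surface protein, was 175-fold higher over 5 GC and 4 TW arrays (log2 difference -7.45 ± 0.66 SE, adjusted p = 2.05e-05, with 4 of 5 GC arrays well above background). PLVAP and the lymphatic factor PROX1 were the 2 members that did not pass (-1.67 ± 0.75 SE and -2.53 ± 0.99 SE).

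Smooth muscle and pericyte genes gave 13 of 17 tested members higher in TW and 0 higher in GC (median -2.91). They included the pericyte surface protein MCAM (45.9-fold, log2 difference -5.52 ± 0.64 SE, adjusted p = 6.71e-05), the potassium channel subunits KCNJ8 (39.2-fold, log2 difference -5.29 ± 0.49 SE, adjusted p = 1.54e-05, with 3 of 5 GC arrays well above background) and KCNMB1 (30.7-fold, log2 difference -4.94 ± 0.32 SE, adjusted p = 2.11e-06), and a probe named for the actin ACTA2 that the annotation describes as cardiac alpha actin. The descriptions also disagree with the symbols of MRC1, NR3C2, ENO1 and PRDX1, which stay in the counts of the leukocyte, receptor, glycolysis and antioxidant lists. MCAM stood at -2.41 on GC array 2 and at -5.11 to -6.82 on the other GC arrays. Among leukocyte genes, 21 of 25 tested members were higher in TW and 0 in GC (median -2.98). CD74, the chaperone of antigen-presenting molecules, lay at -5.64, -3.86, -4.59, -6.07 and -6.96 on the GC arrays and at 0.82, 0.93, 0.16, 0.89 and 0.43 on the TW arrays. The layers were at least 4 log2 units apart (67-fold, log2 difference -6.07 ± 0.51 SE, adjusted p = 8.53e-06). The complement component of macrophages C1QA was 47.3-fold higher (log2 difference -5.57 ± 0.58 SE, adjusted p = 3.44e-05), and the T cell genes CD3E and CD8A were 70.6-fold (adjusted p = 7.22e-06, with 1 of 5 GC arrays well above background) and at least 26.6-fold higher (adjusted p = 7.81e-06). Of 4 tested red blood cell genes, only ALAS2 was called, higher in TW over 4 TW arrays (log2 difference -1.81 ± 0.41 SE, adjusted p = 0.00516), and the hemoglobin genes HBA, HBA2 and HBB did not pass.

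Steroid synthesis genes were called in GC more often than in TW, although the first steps overlapped. Of 23 tested members, 9 were higher in GC, 1 was higher in TW and 13 did not pass, with a median of 0.07, against 20.0% and 27.0% of all features in the 2 directions. With median centring the counts were 15 and 1, beside 10835 and 3778 of all 25559 features. STAR, which moves cholesterol into mitochondria, lay at 4.4, 4.74, 4.53, 1.56 and 4.16 on the GC arrays and at 5.00, 3.84, 4.95, 5.40 and 4.19 on the TW arrays. GC array 4 was more than 2 log2 units below the other GC arrays, the rest overlapped with TW, and STAR did not pass (log2 difference -0.80 ± 0.58 SE, adjusted p = 0.276). CYP11A1, which cuts the cholesterol side chain, lay at 3.68, 5.40, 4.07, 3.97 and 3.95 on the GC arrays and at 4.38, 4.66, 4.83, 4.85 and 3.92 on the TW arrays and did not pass either (log2 difference -0.31 ± 0.33 SE, adjusted p = 0.46). HSD3B2, named HSD3B1 in the array's annotation, makes progesterone from pregnenolone. It lay at 5.76, 5.47, 5.36, 5.36 and 5.70 on the GC arrays and at 3.09, 5.00, 3.1, 2.51 and 3.46 on the TW arrays, saturated on all 5 GC arrays. TW array 2 came close to the GC arrays, and HSD3B2 was at least 4.28-fold higher in GC (adjusted p = 0.00155), though not in the fit of all 34 arrays. FDXR, the reductase that feeds electrons to CYP11A1, lay at 1.5, 1.41, 1.83, 2.18 and 1.82 on the GC arrays and at -2.10, -0.83, -1.06, -1.30 and -2.06 on the TW arrays. It separated the layers on every array (9.3-fold, log2 difference 3.22 ± 0.29 SE, adjusted p = 1.36e-05). The steroid list also had HSD17B4 (1.90), CYB5A (1.16), POR (1.00) and HSD17B12 (0.90) called higher in GC, as log2 differences, the first pair over 4 TW arrays. The electron carrier FDX1, saturated on all GC arrays, was at least 1.59-fold higher in GC (adjusted p = 0.0113), and CYP17A1 was the single member higher in TW. A fixed slide block left 3 higher in GC and 0 higher in TW.

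Receptors for the gonadotropins and nuclear hormones differed little as a group. Of 17 tested members, 2 were higher in GC and 5 in TW (20.0% and 27.0% over all features), and 10 did not pass. The median was -0.04, with no order of the layers that all scalings share. LHCGR, the luteinizing hormone receptor, lay at -3.64, -2.76, -3.54, -2.74 and -2.81 on the GC arrays and at -4.16, -4.46, -4.31, -2.52 and -3.97 on the TW arrays. TW array 4 was above all GC arrays and the other 4 TW arrays were below them, and LHCGR did not pass (log2 difference 0.79 ± 0.38 SE, adjusted p = 0.108), although it did after quantile normalization and with median centring. PGR, the progesterone receptor, lay at -1.23, -1.82, -0.64, -0.66 and 0.69 on the GC arrays and at 0.06, -1.69, -0.61, -1.29 and -0.12 on the TW arrays, with the same mean in both layers (log2 difference 0.00 ± 0.48 SE, adjusted p = 0.997). The oxytocin receptor OXTR was 2.53-fold higher in GC with overlapping arrays (log2 difference 1.34 ± 0.41 SE, adjusted p = 0.0201). The insulin receptor INSR was 22.3-fold higher in TW (log2 difference -4.48 ± 0.55 SE, adjusted p = 9.26e-05), the prolactin receptor PRLR at least 5.31-fold (adjusted p = 4.24e-05) and the retinoic acid receptor RARB at least 8.79-fold (adjusted p = 1.22e-05). A further retinoic acid receptor, RARG, was higher in TW (-1.75 ± 0.36 SE). With slide fixed as a block the counts were 0 higher in GC and 3 higher in TW.

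Hedgehog genes were called in both directions. DHH, the desert hedgehog ligand, lay at -4.02, -2.57, -3.65, -2.63 and -3.58 on the GC arrays and at -6.56, -4.74, -5.85, -4.63 and -5.74 on the TW arrays. GC was 4.63-fold higher on non-overlapping arrays (log2 difference 2.21 ± 0.43 SE, adjusted p = 0.00173). The co-receptor BOC was at least 15-fold higher in TW (adjusted p = 4.26e-05), the co-receptor CDON 3.63-fold (log2 difference -1.86 ± 0.34 SE, adjusted p = 0.00127, with 1 of 5 GC arrays well above background), the transducer SMO 3.94-fold (log2 difference -1.98 ± 0.62 SE, adjusted p = 0.0223, with 3 of 5 GC arrays well above background) and the transcription factor GLI3 5.58-fold (log2 difference -2.48 ± 0.40 SE, adjusted p = 6e-04, with 1 of 5 GC arrays well above background). The pathway targets PTCH1 and GLI1 did not pass (0.09 ± 0.34 SE and -0.65 ± 0.76 SE). In all, 2 of 12 tested members were higher in GC and 5 in TW, against 20.0% and 27.0% of all features. The split was 4 and 3 after quantile normalization and with median centring, 3 and 1 with normexp background and 4 and 1 in the deposited table. In each of these settings more of all features were called in GC than in TW as well. With slide as a fixed block the split was 0 and 3.

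In the insulin-like growth factor system the ligand IGF2 and 4 binding proteins, IGFBP2 to IGFBP5, were higher in TW. IGF2 lay at -2.96, -5.05, -1.80, -3.21 and -3.70 on the GC arrays and at 0.55, 0.93, 1.84, 1.42 and 1.09 on the TW arrays. The layers stood apart on every array (22.8-fold, log2 difference -4.51 ± 0.51 SE, adjusted p = 6e-05). The binding protein IGFBP4 was at least 74.1-fold higher (adjusted p = 1.91e-06) and IGFBP3 33.9-fold (log2 difference -5.08 ± 0.46 SE, adjusted p = 1.34e-05). The adaptor IRS2 was 3.52-fold higher in GC (log2 difference 1.81 ± 0.44 SE, adjusted p = 0.00613), and the receptor IGF1R was 1.72-fold higher in GC (log2 difference 0.79 ± 0.27 SE, adjusted p = 0.0324), a call lost when any of 8 single arrays was left out. IGF1 did not pass (-0.54 ± 0.42 SE). In sum 2 of 15 tested members were higher in GC and 8 in TW (20.0% and 27.0% over all features). With median centring they were 5 and 5, beside 10835 and 3778 of all 25559 features. Slide as a fixed block gave 0 higher in GC and 3 higher in TW.

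Genes that the ovulatory surge is known to induce were called in each direction about as often as features in general (20.0% and 27.0%). Of 29 tested members, 8 were higher in GC, 8 were higher in TW and 13 did not pass, with a median of 0.00. With median centring the counts were 14 and 6, beside 10835 and 3778 of all 25559 features. PTGS2, the inducible cyclooxygenase, lay at 4.42, -1.55, 4.23, 3.92 and 4.41 on the GC arrays and at 0.41, -1.88, 0.92, -0.18 and 0.59 on the TW arrays. GC array 2 was more than 5 log2 units below the other 4 GC arrays and within the TW range, so the layers overlapped (8.66-fold higher in GC, log2 difference 3.11 ± 1.10 SE, adjusted p = 0.0375). Without GC array 2 the difference was 4.27 (adjusted p = 0.000101), whereas the call was lost after quantile normalization and when any of 8 other single arrays was left out. PLAU, the urokinase plasminogen activator, lay at 4.38, -0.88, 4.57, 4.13 and 4.66 on the GC arrays and at 1.58, 1.47, 1.44, 0.92 and 1.68 on the TW arrays. GC array 2 was again alone, below every TW array, while the other 4 were above every TW array. PLAU did not pass (log2 difference 1.95 ± 0.94 SE, adjusted p = 0.108), and without GC array 2 it was higher in GC by 3.02 (adjusted p = 6.17e-06).

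EDN2, the endothelin made by granulosa cells around ovulation, lay at 4.13, -0.38, 4.63, -0.78 and 5.25 on the GC arrays and at -1.29, -3.60, -2.27, -4.63 and 0.79 on the TW arrays. GC arrays 2 and 4 were more than 4 log2 units below the other GC arrays and below TW array 5 (27.3-fold, log2 difference 4.77 ± 1.39 SE, adjusted p = 0.0161). HAS2, the hyaluronan synthase of the expanding cumulus matrix, lay at 0.90, -0.49, 1.05, -0.41 and 2.04 on the GC arrays and at -4.01, -3.77, -4.19, -5.24 and -2.12 on the TW arrays, with GC arrays 2 and 4 the lowest of their layer and still above TW (22.4-fold, log2 difference 4.48 ± 0.62 SE, adjusted p = 2e-04). SPP1, the gene of osteopontin, was 12.7-fold higher over 4 TW arrays (log2 difference 3.66 ± 0.59 SE, adjusted p = 8e-04). BTC, the epidermal growth factor family member betacellulin, was 9.96-fold higher (log2 difference 3.32 ± 0.40 SE, adjusted p = 9.31e-05, with 4 of 5 TW arrays well above background), while its relatives AREG and EREG did not pass (-1.14 ± 1.18 SE and -0.46 ± 1.24 SE). The nuclear receptor PPARG and the coregulator NRIP1 completed the GC side (1.67 ± 0.33 SE and 1.45 ± 0.27 SE), with the receptor EGFR (0.93 ± 0.28 SE).

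**Figure D3:**
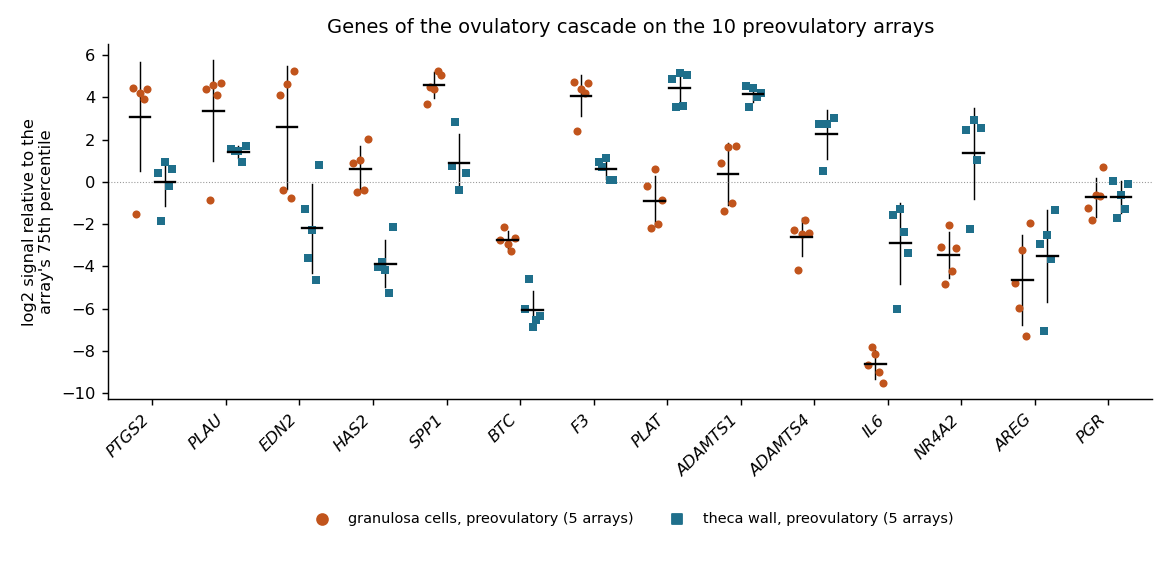
Level of 14 genes tied to ovulation on the 10 preovulatory arrays, in log2 signal relative to each array's 75th percentile, drawn as in the plot of marker genes. For PTGS2 and PLAU 1 granulosa array stands about 5 units below the other 4, for EDN2 2 arrays stand more than 4 units below, and PLAT, ADAMTS1, ADAMTS4 and IL6 are higher on every theca wall array.

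Other ovulatory genes were higher in TW. ADAMTS1, a protease that cuts versican, lay at 0.91, -1.39, 1.63, -1.0 and 1.68 on the GC arrays and at 4.54, 3.55, 4.44, 4.03 and 4.19 on the TW arrays. No array of 1 layer reached the other (13.8-fold, log2 difference -3.78 ± 0.60 SE, adjusted p = 0.000524). PLAT, the tissue plasminogen activator, lay at -0.21, -2.20, 0.60, -1.98 and -0.84 on the GC arrays and at 4.86, 3.56, 5.16, 3.57 and 5.07 on the TW arrays. The lowest TW array was about 3 log2 units above the highest GC array (41.3-fold, log2 difference -5.37 ± 0.57 SE, adjusted p = 3.71e-05). ADAMTS4 was 29.4-fold higher over 4 TW arrays (log2 difference -4.88 ± 0.60 SE, adjusted p = 0.000147). IL6, an inflammatory cytokine, was not well above background on any GC array and lay at -1.57, -6.02, -1.27, -2.36 and -3.37 in TW, lowest on TW array 2 (at least 33.2-fold, adjusted p = 0.000218). The hyaluronan-binding protein gene TNFAIP6 was higher in TW on overlapping arrays (log2 difference -2.48 ± 0.65 SE, adjusted p = 0.00938). Without GC array 2 and TW array 2 the list gave 11 members higher in GC and 8 in TW, and with slide as a fixed block 2 higher in GC and 1 higher in TW.

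Prostaglandin genes were split between the layers. The synthesis genes PTGS2, PTGDS, a prostaglandin D synthase, and PTGES2, a prostaglandin E synthase, were higher in GC. PTGDS lay at 3.07, 1.41, 2.73, 2.48 and 2.94 on the GC arrays and at -1.60, -0.38, -2.26, -1.63 and -2.23 on the TW arrays, with no overlap (17.7-fold, log2 difference 4.14 ± 0.42 SE, adjusted p = 2.49e-05). PTGES2 was 3.38-fold higher in GC (log2 difference 1.76 ± 0.27 SE, adjusted p = 0.000452), and PTGES, the inducible E synthase, did not pass (0.41 ± 0.32 SE). The receptor PTGFR was 1.96-fold higher in GC on overlapping arrays (log2 difference 0.97 ± 0.31 SE, adjusted p = 0.026). In TW stood the receptor PTGDR (43.9-fold, log2 difference -5.45 ± 0.92 SE, adjusted p = 0.000768, with 1 of 5 GC arrays well above background), the exporter ABCC4 (25.8-fold, log2 difference -4.69 ± 0.49 SE, adjusted p = 3.25e-05, with 2 of 5 GC arrays well above background), the transporter SLCO2A1 (-2.90 ± 0.34 SE) and the receptors PTGER2 and PTGIR. Of 16 tested members, 6 were higher in GC and 5 in TW (20.0% and 27.0% over all features), and 5 did not pass. With a fixed slide block they were 2 higher in GC and 2 higher in TW.

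Matrix proteases and their inhibitors were mostly higher in TW: of 29 tested members, 2 were higher in GC, 15 were higher in TW and 12 did not pass, with a median of -1.47. MMP1, interstitial collagenase, was higher in GC. It lay at 1.86, 1.12, 2.30, -0.43 and 3.05 on the GC arrays and at -1.19, -2.23, -2.53, -4.19 and -0.57 on the TW arrays. GC array 4 was the lowest of its layer and just above the highest TW array (13.2-fold, log2 difference 3.72 ± 0.75 SE, adjusted p = 0.00231). The inhibitor TIMP2 was 1.97-fold higher in GC (log2 difference 0.98 ± 0.19 SE, adjusted p = 0.0018). Membrane-bound MMP14 was 22.4-fold higher in TW (log2 difference -4.49 ± 0.50 SE, adjusted p = 5.21e-05, with 2 of 5 GC arrays well above background), gelatinase MMP2 stood at -4.17 ± 0.38 SE, and the broad inhibitor A2M was 44.1-fold higher in TW (log2 difference -5.46 ± 0.75 SE, adjusted p = 0.000193, with 4 of 5 GC arrays well above background). With slide as a fixed block the list gave 0 higher in GC and 6 higher in TW, and the calls of MMP1 (adjusted p = 0.174) and TIMP2 (adjusted p = 0.121) were lost.

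Collagens and structural matrix genes gave 19 of 30 tested members higher in TW and 2 in GC (median -2.93). NID1, a basement membrane linker, was not well above background on any GC array (at least 70.3-fold, adjusted p = 5.31e-07). COL15A1, COL6A1 and the proteoglycan BGN were 85.6-fold, 75.5-fold (with 4 of 5 GC arrays well above background) and 71-fold higher in TW (adjusted p = 2.15e-05, adjusted p = 2.22e-06 and adjusted p = 8.53e-06). The 2 members higher in GC belong to the basement membrane. COL4A1 lay at 4.55, 4.09, 4.43, 5.00 and 4.84 on the GC arrays and at 3.61, 3.54, 3.59, 3.78 and 4.01 on the TW arrays, close but not overlapping (1.83-fold, log2 difference 0.87 ± 0.21 SE, adjusted p = 0.00664). LAMC1 was 1.92-fold higher (log2 difference 0.94 ± 0.30 SE, adjusted p = 0.0253), with GC array 2 below all TW arrays. Both calls were lost after quantile normalization or normexp correction, in the deposited table and when a gene's probes were averaged. They thus rest on the brightest probe of each gene and on the scaling. The counts for TW stayed between 18 and 20 under the scalings tried. Slide as a fixed block gave 0 higher in GC and 14 higher in TW.

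Angiogenic genes were called in both directions, more often in TW. Of 25 tested members, 4 were higher in GC and 13 in TW (20.0% and 27.0% over all features), and 8 did not pass, with a median of -1.76. VEGFA lay at -0.81, -0.83, -1.72, -3.22 and -1.08 on the GC arrays and at -2.89, -2.78, -2.76, -3.03 and -2.66 on the TW arrays. GC array 4 was below all TW arrays and the other 4 GC arrays above them (2.45-fold, log2 difference 1.29 ± 0.42 SE, adjusted p = 0.0269), and the call was lost without GC array 1, 2 or 5 or TW array 1 or 4. ADM, the vasodilator adrenomedullin, lay at 3.52, 3.35, 4.19, 2.84 and 4.56 on the GC arrays and at 0.94, 0.54, 0.51 and 1.05 on the 4 measured TW arrays (7.63-fold, log2 difference 2.93 ± 0.35 SE, adjusted p = 0.000126). In TW, EDN1, the endothelin of vessels, was at least 72-fold higher (adjusted p = 4.76e-07), opposite to EDN2 in GC. The receptor subunits RAMP2 and NRP2 were 18.5-fold and at least 8.37-fold higher in TW (adjusted p = 3.24e-06 and adjusted p = 2.44e-06). Counts with a fixed slide block were 1 higher in GC and 6 higher in TW.

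Cytokines, chemokines and adhesion molecules gave 24 of 31 tested members higher in TW and 0 in GC (median -3.52). CXCL12, a chemokine of stroma, lay at -8.63, -9.08, -5.77, -7.05 and -7.53 on the GC arrays and at -0.88, -0.81, -0.66, -0.51 and -0.48 on the TW arrays. The TW arrays lay close together and the GC arrays spread over more than 3 log2 units (123-fold, log2 difference -6.95 ± 0.53 SE, adjusted p = 4.74e-06, with 1 of 5 GC arrays well above background). CXCL10 lay at -4.11, -8.95, -3.42, -4.17 and -6.04 on the GC arrays and at 2.35, 2.20, 2.43, 2.91 and 1.60 on the TW arrays, lowest by far on GC array 2 (log2 difference -7.64 ± 0.89 SE, adjusted p = 7.07e-05, with 4 of 5 GC arrays well above background). The adhesion molecule of activated endothelium SELP and the receptor IL1R1 were 139-fold (adjusted p = 6.3e-05, with 2 of 5 GC arrays well above background) and 69.2-fold higher (adjusted p = 1.69e-05, with 1 of 5 GC arrays well above background). The summed leukocyte and endothelial markers given above were also higher on every TW array than on every GC array, and their part in these differences was not tested. Counts with a fixed slide block were 0 higher in GC and 15 higher in TW.

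Complement and coagulation genes were higher in TW for 14 of 21 tested members and in GC for 2 (median -2.81). C3, the central complement protein, lay at -5.14, -8.32, -6.33, -7.44 and -6.96 on the GC arrays and at 1.77, 0.43, -0.43, 0.25 and 0.35 on the TW arrays (159-fold, log2 difference -7.31 ± 0.57 SE, adjusted p = 5.45e-06, with 3 of 5 GC arrays well above background). It separated the layers by more than 4 log2 units on every pair of arrays. C7, C1S and C2 were 49.1-fold, 26.3-fold (over 4 TW arrays) and at least 15.9-fold higher (adjusted p = 1.15e-05, adjusted p = 2.38e-06 and adjusted p = 7.54e-07). F3, tissue factor, which starts coagulation, lay at 4.73, 2.39, 4.41, 4.20 and 4.66 on the GC arrays and at 0.96, 0.68, 1.14, 0.09 and 0.10 on the TW arrays. GC array 2 was the lowest of its layer and still above all TW arrays (11.2-fold, log2 difference 3.48 ± 0.44 SE, adjusted p = 0.000118). SERPIND1, a thrombin inhibitor, was 3.66-fold higher in GC (log2 difference 1.87 ± 0.42 SE, adjusted p = 0.00403). Under a fixed slide block the counts were 1 higher in GC and 9 higher in TW.

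Nerve growth and axon guidance genes were higher in TW for 14 of 25 tested members and in GC for 4. Those 4 were EPHA4, SEMA3E, SEMA3B and BDNF. EPHA4, an ephrin receptor, lay at 2.67, 0.43, 2.80, 1.19 and 2.46 on the GC arrays and at -1.88, -2.74, -2.44, -4.02 and -2.34 on the TW arrays (24.1-fold, log2 difference 4.59 ± 0.53 SE, adjusted p = 6.5e-05). BDNF, the neurotrophin, stood at 3.82 ± 0.70 SE (adjusted p = 0.00125), and its receptor NTRK2 at -0.68 ± 0.23 SE on the TW side. SEMA3E was not well above background on any TW array (at least 6.54-fold, adjusted p = 3.82e-05), and PLXND1, its receptor, was 51.6-fold higher in TW (log2 difference -5.69 ± 0.40 SE, adjusted p = 2.77e-06, with 1 of 5 GC arrays well above background). The guidance genes NTN4, ROBO2 and EPHB4 were 12.8-fold, 15.4-fold (with 4 of 5 GC arrays well above background) and 11.1-fold (with 1 of 5 GC arrays well above background) higher in TW. Under a fixed slide block the counts were 4 higher in GC and 5 higher in TW.

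Immediate early genes were called in TW about as often as features in general. Of 23 tested members, 2 were higher in GC, 6 were higher in TW and 15 did not pass, with a median of -0.32. Over all features the shares were 20.0% higher in GC and 27.0% higher in TW. CCN2, connective tissue growth factor, and the phosphatase DUSP6 were 44.3-fold and 23-fold higher in TW (adjusted p = 1.48e-05 and adjusted p = 5.79e-06). NR4A2, an orphan nuclear receptor, lay at -3.07, -4.84, -2.04, -4.24 and -3.12 on the GC arrays and at 2.47, -2.25, 2.94, 1.02 and 2.55 on the TW arrays. TW array 2 fell among the GC arrays and the other TW arrays stood above them (28-fold, log2 difference -4.81 ± 0.94 SE, adjusted p = 0.00183). FOSL1 was 4.84-fold higher in GC (log2 difference 2.27 ± 0.47 SE, adjusted p = 0.00249, with 3 of 5 TW arrays well above background), and FOS, EGR1 and JUN did not pass (0.09, 0.11 and -0.32 as log2 differences). Under a fixed slide block the counts were 0 higher in GC and 2 higher in TW.

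Energy metabolism was the field in which GC genes were most often higher, first the respiratory chain list (31 of 36 tested members) and then the glycolysis and hypoxia list. Of 34 tested glycolysis and hypoxia members, 26 were higher in GC, 2 were higher in TW and 6 did not pass, with a median of 1.44. Between 26 and 32 were higher in GC under the scalings tried. ENO2, a glycolytic enolase, lay at 0.44, 1.54, -0.26, 0.62 and 0.34 on the GC arrays and at -4.31, -1.53, -4.50, -5.15 and -5.31 on the TW arrays. TW array 2 was nearly 3 log2 units above the other TW arrays but below all GC arrays (25.9-fold, log2 difference 4.7 ± 0.66 SE, adjusted p = 0.000226). The hypoxia-induced genes ANKRD37 and BNIP3 and the kinase PDK1, which keeps pyruvate out of mitochondria, were 21.3-fold (log2 difference 4.42 ± 0.44 SE, adjusted p = 2.36e-05), 12.6-fold (log2 difference 3.65 ± 0.27 SE, adjusted p = 3.71e-06) and 11.3-fold higher (log2 difference 3.50 ± 0.35 SE, adjusted p = 2.26e-05). Enzymes of the common path were called too, among them LDHA (2.03 ± 0.20 SE), PGK1 (1.82 ± 0.17 SE) and the lactate exporter SLC16A3 (3.25 ± 0.34 SE). Members of this list did not all go 1 way. EGLN3, an oxygen sensor, and NDRG1, of the same glycolysis and hypoxia list, were 4.59-fold and 2.63-fold higher in TW (adjusted p = 0.00104 and adjusted p = 0.00252). With slide as a fixed block, 15 members were higher in GC and 0 in TW.

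Of the mitochondrial respiratory chain, 31 of 36 tested members were higher in GC, 0 were higher in TW and 5 did not pass, with differences from -0.22 to 1.53 and a median of 0.98. NDUFS1, a core subunit of complex I, lay at 2.60, 2.61, 2.69, 2.47 and 2.79 on the GC arrays and at 1.10, 1.26, 1.14, 0.96 and 1.05 on the TW arrays. The arrays of each layer lay close together and the layers stood apart (2.88-fold, log2 difference 1.53 ± 0.16 SE, adjusted p = 3.15e-05). Complex I subunit NDUFA9, complex III subunit CYC1 and complex II subunit SDHB were 2.66-fold, 2.5-fold and 2.44-fold higher. These differences are small beside the scaling: after quantile normalization 19 members were higher in GC with a median of 0.46, with median centring 35 with a median of 1.76, and with slide as a fixed block 7 with a median of 0.73. In each of these settings 0 members were higher in TW.

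Antioxidant enzymes were higher in GC for 15 of 29 tested members and in TW for 2 (median 0.59, and 10 and 2 after quantile normalization). SOD2, mitochondrial superoxide dismutase, was 6.76-fold higher over 5 GC and 3 TW arrays (log2 difference 2.76 ± 0.40 SE, adjusted p = 0.000574), and the thioredoxin reductase TXNRD1 6.5-fold (log2 difference 2.70 ± 0.46 SE, adjusted p = 0.000803). The glutathione transferases GSTA1, saturated on all GC arrays, and GSTM3 were at least 5.14-fold (adjusted p = 0.000656) and 3.01-fold higher (adjusted p = 9.62e-05). HMOX1, heme oxygenase, was 3.15-fold higher in TW (log2 difference -1.66 ± 0.37 SE, adjusted p = 0.00396), as was MGST1 on overlapping arrays (log2 difference -2.33 ± 0.70 SE, adjusted p = 0.0183, with 1 of 5 GC arrays well above background). A fixed slide block left 2 higher in GC and 1 higher in TW.

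Genes of protein folding were higher in GC for 9 of 24 tested members and in TW for 2 (20.0% and 27.0% over all features). The GC side was led by SDF2L1 (3.11-fold, log2 difference 1.64 ± 0.23 SE, adjusted p = 0.000232), MANF (2.14-fold, log2 difference 1.10 ± 0.20 SE, adjusted p = 0.00123) and SSR1 (1.98-fold). The chaperone HSPA5 stood at 0.86 ± 0.21 SE and did not pass after quantile normalization. The stress-linked genes TRIB3 and DDIT3 were 4.35-fold and 1.99-fold higher in TW on overlapping arrays (adjusted p = 0.00363, with 1 of 5 GC arrays well above background, and adjusted p = 0.0386). Slide as a fixed block gave 6 higher in GC and 0 higher in TW.

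Cholesterol genes were less one-sided. Of 30 tested members, 8 were higher in GC and 4 in TW (20.0% and 27.0% over all features), and 18 did not pass. The median was 0.22, and less the median of all features it was -0.11 after quantile normalization. The synthesis enzymes NSDHL and DHCR7 lay apart in the layers. NSDHL stood at 3.70, 3.13, 3.51, 3.59 and 3.88 on the GC arrays and at 1.56, 1.68, 1.94, 1.84 and 1.28 on the TW arrays (3.73-fold, log2 difference 1.90 ± 0.21 SE, adjusted p = 4.16e-05), and DHCR7 was 2.85-fold higher in GC (log2 difference 1.51 ± 0.22 SE, adjusted p = 0.000256). The lipase LIPE and the regulator SREBF1 were 3.22-fold and 2.7-fold higher in GC on overlapping arrays (adjusted p = 0.0111 and adjusted p = 0.0265). The exporters ABCG1 and ABCA1 were 16-fold and at least 4.25-fold higher in TW (adjusted p = 4.58e-06, with 3 of 5 GC arrays well above background, and adjusted p = 4.74e-05). The uptake receptor SCARB1 did not pass (0.09 ± 0.38 SE). Under a fixed slide block 1 higher in GC and 2 higher in TW were counted.

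Cell division genes were the reverse of metabolism. Of 44 tested members 37 were higher in TW, 0 were higher in GC and 7 did not pass (median -3.19). NDC80, a kinetochore protein, was not well above background on any GC array, where it lay at -8.46, -8.87, -7.73, -6.64 and -8.59, and it lay at -1.91, -2.40, -2.40, -1.94 and -2.23 in TW. GC array 4 was the highest of its layer and still more than 4 log2 units below TW (at least 51.8-fold, adjusted p = 2.22e-06). MKI67, the proliferation marker Ki-67, lay at -6.64, -8.14, -7.19, -6.36 and -7.41 on the GC arrays and at -2.23, -2.48, -2.73, -2.21 and -2.44 on the TW arrays (26.5-fold, log2 difference -4.73 ± 0.32 SE, adjusted p = 2.38e-06, with 1 of 5 GC arrays well above background). The mitotic kinesin KIF20A lay at -4.72 on GC array 4 and below -8 on the other GC arrays (49.9-fold higher in TW, log2 difference -5.64 ± 0.77 SE, adjusted p = 0.000186, with 1 of 5 GC arrays well above background). CENPF, another kinetochore gene, was at least 33.3-fold higher (adjusted p = 3.07e-06). The replication gene PCNA, the kinases AURKA and PLK1 and the checkpoint gene MAD2L1 were among those that did not pass (log2 differences 0.04 over 3 TW arrays, 1.31, -0.92 and -0.44). Between 31 and 36 members were higher in TW under the other scalings, and 6 with slide as a fixed block, where the median was -2.57. The summed level of the list ran from 6.42 to 12.8 on the GC arrays, highest on array 4, and from 22.0 to 30.4 on the TW arrays.

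Cell junction genes were called in both directions, more often in TW. CGN, a tight junction protein, was 10.1-fold higher in GC with TW array 2 inside the GC range (log2 difference 3.33 ± 0.89 SE, adjusted p = 0.0104, with 1 of 5 TW arrays well above background), beside CDH2 and the claudins CLDN11 and CLDN12 (1.80 ± 0.62 SE and 1.21 ± 0.31 SE). CDH13, CDH11, the connexin GJA5 and the endothelial cadherin CDH5 were 105-fold (with 2 of 5 GC arrays well above background), 85.3-fold, 19.9-fold and 15.8-fold (with 3 of 5 GC arrays well above background) higher in TW. GJA1, the connexin that couples granulosa cells, did not pass (-1.16 ± 0.55 SE, adjusted p = 0.103). In all, 4 of 26 tested members were higher in GC and 14 in TW (20.0% and 27.0% over all features). Slide as a fixed block gave 3 higher in GC and 8 higher in TW.

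The second comparison asked whether the layers differed by more or less before ovulation than at the 2 earlier stages. For each feature the gap, GC minus TW, was taken at each stage, and the gap at PO was set against the mean of the gaps at ED and LD in 1 fit of all 34 arrays. A positive change means that GC moved up relative to TW. Of 27796 features, 8716 changed their gap (31.4%), 3984 toward GC (14.3%) and 4732 toward TW (17.0%), with a median change of -0.13. A fixed slide block gave 8776 calls, and leaving out GC array 2 and TW array 2 gave 9085.

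Cell division turned from GC to TW. The median gap of its 44 tested members was 1.81 at ED, 0.47 at LD and -3.19 at PO, and 40 changed toward TW and 0 toward GC. NDC80 changed toward TW (-7.15 ± 1.13 SE, adjusted p = 4.9e-05), a fitted value that rests, like that of CENPF, on GC signals not well above background at PO and is not a bound. Its GC mean went from 0.29 ± 0.12 (SD, n = 5) at ED through -2.97 ± 3.83 at LD to -8.06 ± 0.90 at PO, and its TW mean from -2.15 ± 0.63 through -3.07 ± 0.69 (n = 9) to -2.18 ± 0.24. The GC arrays spread most at LD. CENPF (-6.75 ± 1.10 SE, adjusted p = 6.75e-05), ASPM, a spindle protein (-6.28 ± 1.08 SE, adjusted p = 0.000118), and E2F8, a transcription factor of the cell cycle (-6.20 ± 0.88 SE, adjusted p = 1.72e-05), went the same way. On slides 2 and 8, the only ones with both layers, the list's median gap at LD was 0.89 and 2.57. With slide as a fixed block 41 members changed toward TW, and 40 without GC array 2 and TW array 2.

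**Figure D4:**
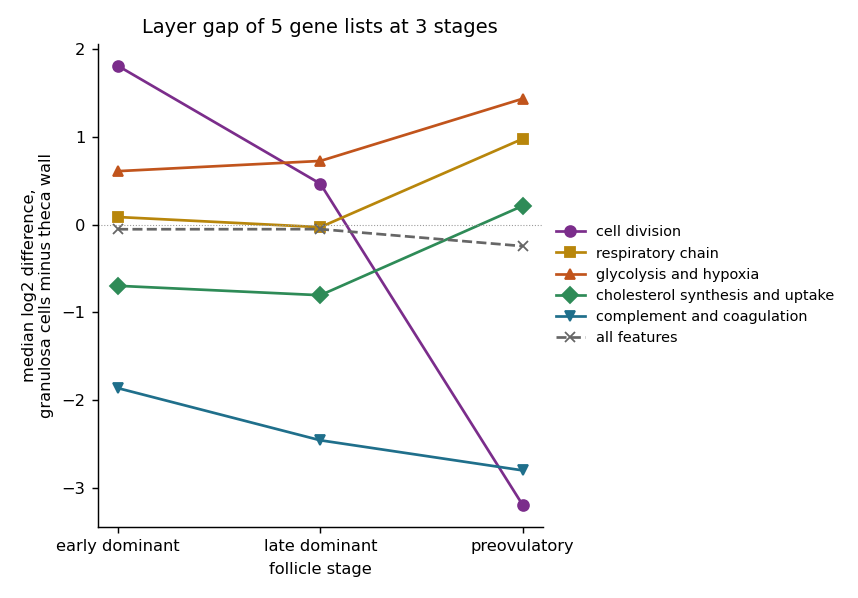
Median log2 difference between granulosa cells and theca wall at 3 follicle stages for the members of 5 gene lists and, dashed, for all features. Cell division falls from 1.81 to -3.19, while the respiratory chain, glycolysis and cholesterol lists rise from late dominant to preovulatory.

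Metabolic lists moved the other way. The respiratory chain had a median gap of 0.09 at ED, -0.03 at LD and 0.98 at PO, and 30 of its 36 members changed toward GC and 0 toward TW (18 after quantile normalization). Among them were NDUFA9 (1.22 ± 0.24 SE, adjusted p = 0.000445) and SDHB (1.01 ± 0.27 SE, adjusted p = 0.00551), while NDUFS1 did not pass (0.21 ± 0.32 SE, adjusted p = 0.664). Cholesterol genes had median gaps of -0.70 at ED, -0.80 at LD and 0.21 at PO, with 14 of 31 members toward GC and 1 toward TW, and 10 toward GC without GC array 2 and TW array 2. NSDHL went from a TW to a GC excess, with gaps of -1.07 at ED, -0.40 at LD and 1.90 at PO (2.64 ± 0.36 SE, adjusted p = 1.32e-05), as did the lipase LIPE (2.18 ± 0.48 SE, adjusted p = 0.001). Glycolysis and hypoxia genes changed toward GC for 15 of 34 members and toward TW for 0, for example BNIP3 (2.34 ± 0.55 SE, adjusted p = 0.00192), and antioxidant enzymes for 11 and 1 of 29.

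Steroid genes changed in both directions, 7 of 23 toward GC and 3 toward TW. STAR had gaps of -5.10 at ED, -2.64 at LD and -0.80 at PO (3.07 ± 0.95 SE, adjusted p = 0.0146), a change that did not pass without GC array 2 and TW array 2 (adjusted p = 0.0518). Its GC mean was -0.08 ± 2.38 at ED and 3.88 ± 1.31 at PO, and its TW mean stayed between 4.68 and 5.18, so the layers came to overlap. CYP11A1 narrowed likewise (1.69 ± 0.62 SE, adjusted p = 0.0377), a call lost in 8 alternatives, among them quantile normalization (adjusted p = 0.115), slide as a fixed block (adjusted p = 0.0579) and GC array 2 left out. HSD17B1 lost its GC excess, with gaps of 7.10 at ED, 3.90 at LD and -0.35 at PO (-5.85 ± 1.35 SE, adjusted p = 0.00164), as did IHH, with gaps of 6.20 at ED, 3.77 at LD and 0.15 at PO (-4.83 ± 1.10 SE, adjusted p = 0.00146). At PO most arrays of both layers did not have IHH well above background. Its gap there and the size of its change thus rest on dim signals. The GC mean of HSD17B1 went from 3.02 ± 1.2 to -6.13 ± 0.80. CYP19A1, FSHR, INHA and INHBA, the classic GC genes, did not pass (0.15 ± 1.18 SE, adjusted p = 0.941 for CYP19A1, and -1.52 ± 1.27 SE, adjusted p = 0.381 for FSHR).

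In the hedgehog and stromal sets, HHIP turned over. Its gap was -4.01 at ED, -1.22 at LD and 1.97 at PO (4.59 ± 0.74 SE, adjusted p = 6.15e-05), the GC mean going from -6.56 ± 0.81 to -3.94 ± 1.22 and the TW mean from -2.54 ± 0.92 to -5.91 ± 0.48. The pathway targets GLI1 and PTCH1 lost their TW excess, with gaps of -4.96 at ED, -4.05 at LD and -0.65 at PO for GLI1 (3.85 ± 0.84 SE, adjusted p = 0.000999) and of -3.64 at ED, -2.28 at LD and 0.09 at PO for PTCH1 (3.06 ± 0.56 SE, adjusted p = 0.000207). The TW mean of GLI1 went from 1.19 ± 0.72 to -4.85 ± 1.91. WT1 had gaps of 0.59 at ED, -0.56 at LD and -4.70 at PO (-4.72 ± 0.65 SE, adjusted p = 1.33e-05). The granulosa list as a whole had median gaps of 3.53 at ED, 2.65 at LD and 0.99 at PO, with 6 of 17 members toward TW and 0 toward GC.

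**Figure D5:**
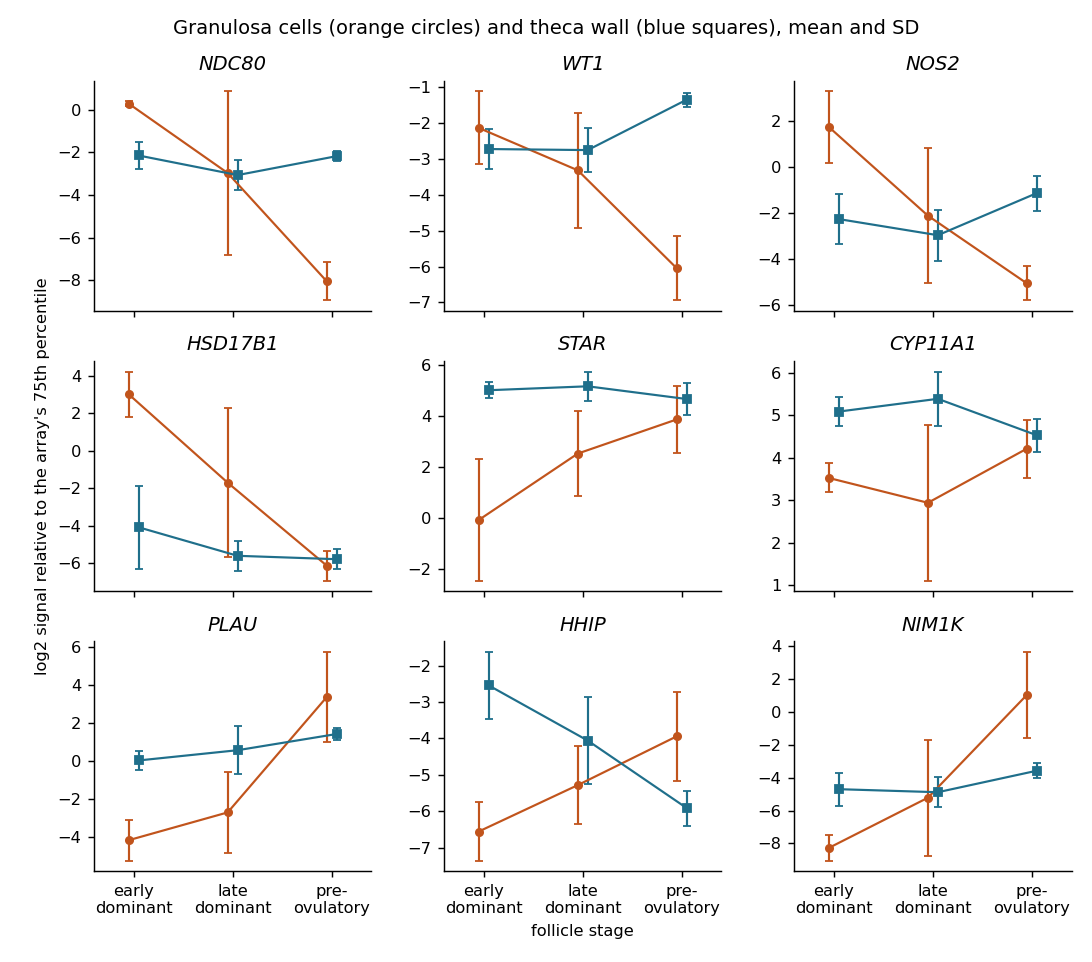
Mean and SD of granulosa cells (circles) and theca wall (squares) at 3 stages for 9 genes, in log2 signal relative to the array's 75th percentile, with 5 arrays a point and 9 for late dominant theca wall. NDC80, WT1, NOS2 and HSD17B1 fall in granulosa cells, STAR and PLAU climb there, and HHIP and NIM1K cross.

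The named genes with the largest move toward GC were GNAZ, NIM1K, AGPAT4, HPD, MYL7 and PLAU. GNAZ, a G protein subunit, had gaps of -5.17 at ED, -2.09 at LD and 3.22 at PO (6.85 ± 0.82 SE, adjusted p = 7.12e-06), and AGPAT4, a lipid acyltransferase, -3.95 at ED, -2.60 at LD and 3.17 at PO (6.45 ± 0.74 SE, adjusted p = 5.03e-06). PLAU, which did not pass at PO alone, had gaps of -4.21 at ED, -3.29 at LD and 1.95 at PO (5.70 ± 1.06 SE, adjusted p = 0.000235), and the change was 6.77 without GC array 2. NIM1K, a protein kinase, had -3.57 at ED, -0.33 at LD and 4.62 at PO (6.58 ± 1.31 SE, adjusted p = 0.000428). At PO it lay at 1.82, -3.60, 2.09, 2.57 and 2.36 on the GC arrays and at -3.14, -4.21, -3.49, -3.81 and -3.22 on the TW arrays, GC array 2 inside the TW range. For HPD, an enzyme of tyrosine breakdown, the larger step was in TW, whose mean went from -2.58 ± 0.97 to -8.31 ± 1.2, against -6.49 ± 1.45 and -5.31 ± 1.04 in GC (6.15 ± 1.05 SE, adjusted p = 0.000111). The lowest signals well above background on the TW arrays at PO were -8.23 to -7.15, above that TW mean. The size of the HPD change thus rests on dim signals. MYL7, a myosin light chain not called at PO alone, had gaps of -5.95 at ED, -3.38 at LD and 1.23 at PO (5.89 ± 1.03 SE, adjusted p = 0.000132). PTGS2 had gaps of 0.53 at ED, 0.95 at LD and 3.11 at PO (2.37 ± 0.83 SE, adjusted p = 0.0297), a call lost in 8 alternatives, and ADM -0.63 at ED, 0.42 at LD and 2.93 at PO (3.04 ± 0.84 SE, adjusted p = 0.00718).

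Toward TW, beside the 4 cell division genes, moved SST and NOS2. SST, the peptide hormone somatostatin, was near background in both layers at ED, -8.56 ± 0.71 in GC and -8.80 ± 0.31 in TW, and at PO it lay at -6.52, -8.12, -6.0, -8.83 and -8.19 on the GC arrays and at -1.32, -2.40, 0.56, -1.08 and 0.07 on the TW arrays. It was 104-fold higher in TW at PO, with 1 of 5 GC arrays well above background (gap change -6.36 ± 1.11 SE, adjusted p = 0.000128). NOS2, the inducible nitric oxide synthase, went from a GC to a TW excess, with gaps of 3.99 at ED, 0.85 at LD and -3.92 at PO (-6.34 ± 1.09 SE, adjusted p = 0.000116). The TW mean of NR4A2 went from -4.49 ± 0.64 at ED to 1.35 ± 2.14 at PO against -3.46 ± 0.50 and -3.46 ± 1.09 in GC (-5.11 ± 1.05 SE, adjusted p = 0.000561). IL6 (-3.70 ± 0.81 SE, adjusted p = 0.001) and MMP14 (-3.60 ± 0.61 SE, adjusted p = 0.000109) went the same way. At PO IL6 was not well above background on any GC array, and MMP14 was so on only part of them. Both fitted changes thus rest on dim GC signals and are not bounds. Complement and coagulation genes changed toward TW for 8 of 23 members with 0 toward GC. All 12 of the genes with the largest change kept their call with slide as a fixed block and without the arrays of slide 7.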

How the data were processed

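Total RNA of granulosa cells and theca wall was amplified, labelled with Cy3 and hybridised to single-colour Agilent horse arrays, per the labels' protocols. Per the file headers, the deposited intensity values came from Feature Extraction 9.5.3.1 (the submitters' processing notes name 9.1), which subtracted background and detrended each array. The deposited log2 value table matched quantile-normalized log2 mean signals (lowest correlation 0.9999953), with column medians of 7.29, and served as an alternative. The sources used here do not give the genome build behind the probe coordinates.

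From the processed intensity, log2 values were set relative to the 75th percentile of the array's spots other than controls. Outlier-flagged spots were left out, repeated spots were averaged, and a feature was kept if 5 or more of the fitted arrays had it well above background. A gene with several probes was read by the probe brightest over the 34 arrays. Of 43603 probes, 22550 had a symbol, for 12314 symbols, most from the array's annotation brought up to date through RefSeq (assembly TB-T2T). Among them, 115 took the symbol of a named probe with the same UniProt accession and 290 a symbol inside the protein name. A further 307 were named by matching their description to protein names written by hand for members of the gene lists. The arrays were fitted with limma 3.58.1 (lmFit and eBayes, R 4.3.3) with Benjamini-Hochberg adjustment at 0.05, over the 10 preovulatory arrays for the layers and over all 34 for the change of the gap, and the procedure was tested on simulated data. Tables and plots were made with pandas 2.3.3 and matplotlib 3.10.9. The number of arrays limits the precision. An "at least" fold sets the brighter layer's mean against the mean, over the dimmer layer's arrays, of the higher of the probe's own signal and the lowest signal well above background, or takes a saturated signal at its value.

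The genes compared and the gene lists were chosen with earlier results of these data known. Genes were named by rule: the 8 largest non-overlapping differences in each direction, up to 4 members of each list in its main direction and 2 in the other, 17 genes of follicle function, and the 6 largest changes of the gap in each direction. Other list members were named after their values were seen. Alternatives covered the scaling, background correction, deposited table, spot flags, filter, probe choice, slide as a random or fixed block, and each array left out. Leaving out GC array 2 with TW array 2, or the arrays of slide 7, was chosen after seeing the data.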

Additional observations from a re-analysis of the deposited data

Results flagged for a closer look

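In 36 of 357 groups of 5 arrays (or 4, where a spot was left out) 1 array stood apart from the rest of its layer by more than Dixon's critical value. Chance alone does so in about 1 in 20 independent groups of normal values. The groups here were read on the same arrays, so the count cannot be tested against that rate. GC array 2 held 12 of them: ADAMTS4 at -4.16, AGPAT4 at -2.54, CLDN10 at -1.60, FSHR at -6.85, NIM1K at -3.60, PLAU at -0.88, PTGS2 at -1.55, F3 at 2.39 and MANF at 4.63 were its low values, and CYP11A1 at 5.40, RARB at -7.29 and the summed leukocyte markers at 4.94 its high ones. TW array 2 was apart for ADAMTS4 at 0.53, CDH2 at 1.67, CYC1 at 3.02, ENO2 at -1.53, GNAZ at -3.80 and SNAI2 at 0.36. GC array 4 was apart for ASPM at -4.66, KIF20A at -4.72, NOS2 at -3.78, SEMA3E at -6.29 and STAR at 1.56. TW array 4 was apart for LHCGR at -2.52, ROBO2 at -0.81, its 1718 outlier spots and its repeat variation of 20.2%. The rest were PDK1 at 0.50 and TRIB3 at -5.10 on GC array 3, GJA5 at -5.48 and MGST1 at -5.57 on GC array 5, FSHR at -8.85 and SDHB at 0.93 on TW array 5, PDK1 at -2.76 and the summed red blood cell genes at 1.59 on TW array 3, and the summed leukocyte markers at 41.7 on TW array 1.

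For 68 of the 167 named genes the gap between the layers at PO differed from the mean gap at the earlier stages, by limma's test of that difference. Over all features 31.4% did, and many named genes were picked by their values. Listed here are 17 of them, from the 17 genes of follicle function and the 6 largest gap changes in each direction. The gap moved toward GC for GNAZ (6.85), NIM1K (6.58), AGPAT4 (6.45), HPD (6.15), MYL7 (5.89), PLAU (5.70), STAR (3.07), PTGS2 (2.37) and CYP11A1 (1.69). It moved toward TW for NDC80 (-7.15), CENPF (-6.75), SST (-6.36), NOS2 (-6.34), ASPM (-6.28), E2F8 (-6.20), HSD17B1 (-5.85) and IHH (-4.83).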

How the results depend on the processing

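Of the 166 named genes tested between the layers, the 159 that were called kept their direction in every alternative run, and 5 of the other 7 (CYP11A1, HSD17B1, LHCGR, MYL7 and PGR) changed sign in at least 1. A fixed slide block ended 57 of the 159 calls, and 4481 features were called against 12028. Leaving out single arrays gave 10390 to 12930 calls between the layers and 7530 to 9379 for the change of the gap. Medians of the gene lists, less the median of all features, moved most clearly in these cases. After normexp correction they were -3.16 for theca stroma, -1.79 for endothelium, -1.57 for smooth muscle, -1.75 for collagens, -0.36 for angiogenic genes, -1.49 for cytokines, -1.36 for complement, -0.13 for nerve growth, 1.05 for glycolysis, 0.40 for the respiratory chain, -1.32 for cell division, 0.12 for antioxidants and 0.12 for protein folding. In the deposited table they were -2.72 for endothelium, -1.61 for smooth muscle, -1.97 for collagens, -1.87 for cytokines, -1.79 for complement, -0.33 for nerve growth, 1.21 for glycolysis, 0.37 for the respiratory chain, -0.052 for cholesterol, -2.04 for cell division, 0.15 for antioxidants and 0.069 for protein folding. After quantile normalization they were -4.80 for endothelium, -2.75 for cytokines, 0.30 for the respiratory chain, -0.11 for cholesterol, 0.088 for antioxidants and 0.12 for protein folding. Under the fixed slide block they were -3.18 for theca stroma, -4.41 for endothelium, 0.069 for insulin-like growth factors, 0.16 for prostaglandins, -2.54 for cytokines, -1.79 for complement and 0.93 for the respiratory chain, of which the insulin-like growth factors and prostaglandins changed sign, as cholesterol did in the deposited table, after quantile normalization and after normexp correction (-0.016). Smaller medians also changed sign under the fixed slide block, red blood cell genes from -0.30 to 0.15 (and in 3 other settings), immediate early genes from -0.13 to 0.29 and hormone receptors from 0.16 to -0.0073. With no filter on dim probes they were -0.90 for prostaglandins and -2.34 for cytokines, with the stricter filter -3.0 for smooth muscle and -0.83 for prostaglandins, and in the fit of 34 arrays -0.78 for prostaglandins. With single arrays left out, smooth muscle ran from -3.07 to -2.44 and complement from -3.25 to -2.59. The cause of these moves was not tested. Dim probes near background limit the size of many TW differences, since 826 called TW features were not well above background on any GC array. No paired analysis was possible because the labels carry no replicate numbers and do not tie a granulosa sample to a theca wall sample.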
